A study of Mus musculus with 75 samples.

Results

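Genes of 9 splicing regulators and of the transcriptional repressor Rest were followed across single hair cells (HCs) and supporting cells (SCs) of the adult mouse cochlea. The 10 genes, Srrm3, Srrm4, Rbm24, Rest, Ptbp1, Ptbp2, Mbnl1, Mbnl2, Mbnl3 and Esrp1, were named as a list, and all 10 are among the 55291 genes of the deposited count table. The measurement was full-length single-cell RNA-Seq of 75 hand-picked cells, each amplified with a Smart-Seq kit, in 5 groups. Of these, 17 were wild-type outer hair cells at P30 (WT_P30 OHCs) from Slc26a5 CreER/+; Ai9/+ mice, in which the Cre knocked into the Prestin gene labels OHCs, given tamoxifen at P20 and P21. Another 16 were wild-type SCs at P60 (WT_P60 SCs), mostly pillar and Deiters' cells, from Fgfr3-iCreER+; Ai9/+ mice given tamoxifen at P30 and P31. The remaining 42 cells, called induced cells here, were Tdtomato+ cells of P60 Fgfr3-Atoh1-Ikzf2-DTR mice. These mice carry Fgfr3-iCreER, a Cre-dependent CAG-driven Atoh1 transgene, a Cre-dependent cassette at Rosa26 that expresses HA-tagged Ikzf2 together with Tdtomato and Slc26a5 DTR/+, which makes OHCs sensitive to diphtheria toxin. Tamoxifen at P30 and P31 switched on Atoh1 and Ikzf2 in adult SCs, and the toxin (20 ng/g) at P36 killed the original OHCs. The study sorted the 42 cells into 11 OHC-like cells (Myo7a and Prestin present), 16 nascent HCs (Myo7a only) and 15 SCs failing to become HCs (neither). All mice were C57BL/6 by their labels.

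Alternative splicing in HCs depends on regulators that are otherwise best known from neurons and muscle. SRRM4 and its paralog SRRM3 promote the inclusion of neuronal microexons, very short exons that other factors keep out of the mRNA, and mice that lack functional SRRM4 lose balance and hearing. One of their targets is Rest itself: inclusion of an alternative exon yields a truncated repressor, so that genes REST holds down outside neurons can be expressed in HCs. RBM24 is an RNA-binding protein of muscle and of HCs, and PTBP1 and PTBP2 repress exons through polypyrimidine tracts. The muscleblind-like proteins MBNL1 and MBNL2 drive the switch from fetal to adult exons, and MBNL3 is their paralog. ESRP1 maintains splicing patterns of epithelia.

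Each cell is 1 library and the labels name no animal, so a group counted as 1 sample and no test between groups was made. Levels are reads per 1000000 reads of the cell (CPM) after TMM scaling, given as mean ± SD over cells with the lowest, median and highest cell. A gene was scored as detected in a cell from 1 CPM before TMM scaling, and shares of cells carry 95% exact binomial (Clopper-Pearson) intervals, which cover counting error only. Where no cell had the gene, the share that 3 cells of the group would make is given as the limit, for cells with reads of the gene. A difference between groups is the ratio of their mean CPM. Ratios over 4 (a log2 ratio over 2 in either direction) are described as past the 4-fold limit, and the share of all 11443 genes that pass the same limit stands beside the counts of genes in each comparison. The filter on low counts kept 9 of the 10 genes and removed Mbnl3. Where a mean was below the level of 3 reads per library, that level, between 0.278 and 0.443 CPM by group, took its place, and where no cell of a group had more than 3 reads of the gene the ratio is a lower bound.

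The total count per cell lay between 4264780 and 22934062. The number of genes detected ranged from 3630 to 5431 in WT_P30 OHCs and from 5542 to 7743 in WT_P60 SCs, and the lowest value of all, 3348, was that of OHC-like cell 4. By the sequencing library codes in the sample descriptions, all WT_P30 OHCs form 1 consecutive series and all WT_P60 SCs another. Cell type, age (P30 against P60) and library series therefore cannot be told apart between the wild-type groups. WT_P60 SCs and induced cells share the age but no series, and WT_P30 OHCs and induced cells share neither. The induced cells were divided into 5 other series, named A to E here, and series A and C held 14 of the 15 SCs failing to become HCs. The codes run on in number from A to B, from B to C and from C to D, so gaps in the codes do not mark these divisions. The basis of the divisions is not given here, and they are not known to be batches. Series B and D held no SC failing to become a HC, so series and group cannot be fully told apart among induced cells. By markers, all 6 OHC markers examined were detected in all 17 WT_P30 OHCs and none in any WT_P60 SC. Otof, examined as an inner hair cell marker, was at 435 CPM in WT_P30 OHCs (14 of 17 cells). It was detected in at most 1 cell of each other group. Of the same marker list, Slc17a8 was at 7.09 CPM in WT_P30 OHCs (2 of 17 cells) and Slc7a14 at 0 CPM (0 of 17). Summed SC markers were between 1652 and 8023 CPM in WT_P60 SCs. The SC markers still summed to between 159 and 918 CPM in OHC-like cells and between 175 and 938 CPM in nascent HCs.

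The paralogs Srrm3 and Srrm4 are shown with their promoters because one was mainly found in adult OHCs and the other in induced cells. Both lie on mouse chromosome 5 (GRCm38, GENCODE M21): Srrm4 on the minus strand at chr5:116439275-116591817 and Srrm3 on the plus strand at chr5:135806890-135874772. The RefSeq promoter windows (GRCm38.p6, 250 bases before to 50 bases after the start) are chr5:116591768-116592067 for Srrm4 and chr5:135817856-135818155 for Srrm3, the latter inside the span that GENCODE gives the gene. Capitals mark CAGATG on either strand (CATCTG when read from the other strand), a form of the E-box that basic helix-loop-helix factors such as ATOH1 bind.
Srrm4 promoter: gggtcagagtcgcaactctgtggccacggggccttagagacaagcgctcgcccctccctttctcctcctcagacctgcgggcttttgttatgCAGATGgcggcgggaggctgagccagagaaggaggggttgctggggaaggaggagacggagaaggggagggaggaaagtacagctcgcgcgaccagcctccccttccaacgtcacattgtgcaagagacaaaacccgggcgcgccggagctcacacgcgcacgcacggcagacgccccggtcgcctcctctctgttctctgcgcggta
Srrm3 promoter: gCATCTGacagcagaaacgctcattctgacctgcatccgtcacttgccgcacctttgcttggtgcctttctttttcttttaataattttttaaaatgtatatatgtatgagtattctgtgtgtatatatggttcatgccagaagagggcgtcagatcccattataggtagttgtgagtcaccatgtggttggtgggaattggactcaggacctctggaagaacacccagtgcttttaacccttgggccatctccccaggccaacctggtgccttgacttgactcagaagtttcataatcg
CAGATG occurred once in each of these windows and once in that of Ptbp1, thus in 3 of the 9 windows found for 8 of the genes (Mbnl1 has several windows, Rest and Esrp1 none in the table), and in 17.2% of the 32851 mouse promoter windows of the same length. A second form, CAGCTG, was present in the Ptbp1 window and in 16.3% of all windows. The letters were chosen with the expression values known, and binding was not measured.

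Srrm3 was mainly a transcript of adult OHCs in these cells. Its level in WT_P30 OHCs was 28.4 ± 40.8 CPM (SD, n = 17 cells), from 0 through a median of 6.50 to 147, and it was detected in 9 of 17 cells (52.9%, interval 27.8 to 77.0%). No read was found in any of 16 WT_P60 SCs, which allows a share of cells with reads of up to 18.8%, nor in any of 15 SCs failing to become HCs (up to 20.0%). The ratio of WT_P30 OHCs over WT_P60 SCs was therefore at least 67.6 (log2 6.08). OHC-like cells had 1.74 ± 3.78 CPM (n = 11) and nascent HCs 2.07 ± 5.44 CPM (n = 16), with median cells at 0 in both. The gene was detected in 2 of 11 OHC-like cells, where it reached 11.5 CPM, and in 3 of 16 nascent HCs, with 20.6 CPM as the highest value. The mean of OHC-like cells was 16.4-fold below that of WT_P30 OHCs (log2 -4.03), or 37.5-fold without OHC-like cell 9, while the cells of both groups overlapped. Relative to WT_P60 SCs, OHC-like cells were at least 4.13-fold and nascent HCs at least 4.93-fold higher, values close to the 4-fold limit. Single cells carried them: without its highest cell the mean was 0.757 CPM in OHC-like cells and 0.835 CPM in nascent HCs. The bounds fell to 2.99 and 1.80 without OHC-like cell 2 or 9, and to 3.80 and 1.99 without nascent HC 4 or 8. With total counts only, the ratio of OHC-like cells was under the limit (log2 1.92).

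Srrm4 had the opposite distribution among HCs. In OHC-like cells it stood at 129 ± 113 CPM, with a lowest cell of 0, a median of 113 and a highest of 341, and it was detected in 10 of 11 cells (90.9%, 58.7 to 99.8%). Nascent HCs had 87.7 ± 113 CPM, from 0 through a median of 72.4 to 439, with detection in 10 of 16 cells (62.5%, 35.4 to 84.8%). In both groups the gene was either well above background or nearly absent: every cell that passed 1 CPM had at least 44.1 CPM. Only 3 of 17 WT_P30 OHCs had the transcript (17.6%, 3.80 to 43.4%), at 30.2, 56.5 and 82.9 CPM, and their group mean was 9.98 ± 24.1 CPM. No WT_P60 SC had a read. Among SCs failing to become HCs, cell 7 had 25.3 CPM, another cell 4.86 CPM, and the median was 0. The mean of OHC-like cells was at least 308-fold above that of WT_P60 SCs (log2 8.27) and that of nascent HCs at least 209-fold (log2 7.71). OHC-like cells were also 13.0-fold above WT_P30 OHCs (log2 3.70), or 23.9-fold without WT_P30 OHC 10, and in 91.4% of all pairs of an OHC-like cell with a WT_P30 OHC the OHC-like cell had more Srrm4. Against SCs failing to become HCs the ratios were 64.3 for OHC-like cells and 43.6 for nascent HCs. These 2 ratios rested on cell 7 of SCs failing to become HCs, since without it the remaining mean, 0.353 CPM, was below the level of 3 reads, and the ratios to that level were 302 and 205. The same cell carried the 4.79-fold ratio of SCs failing to become HCs over WT_P60 SCs, for which no ratio is left without it.

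**Figure D1:**
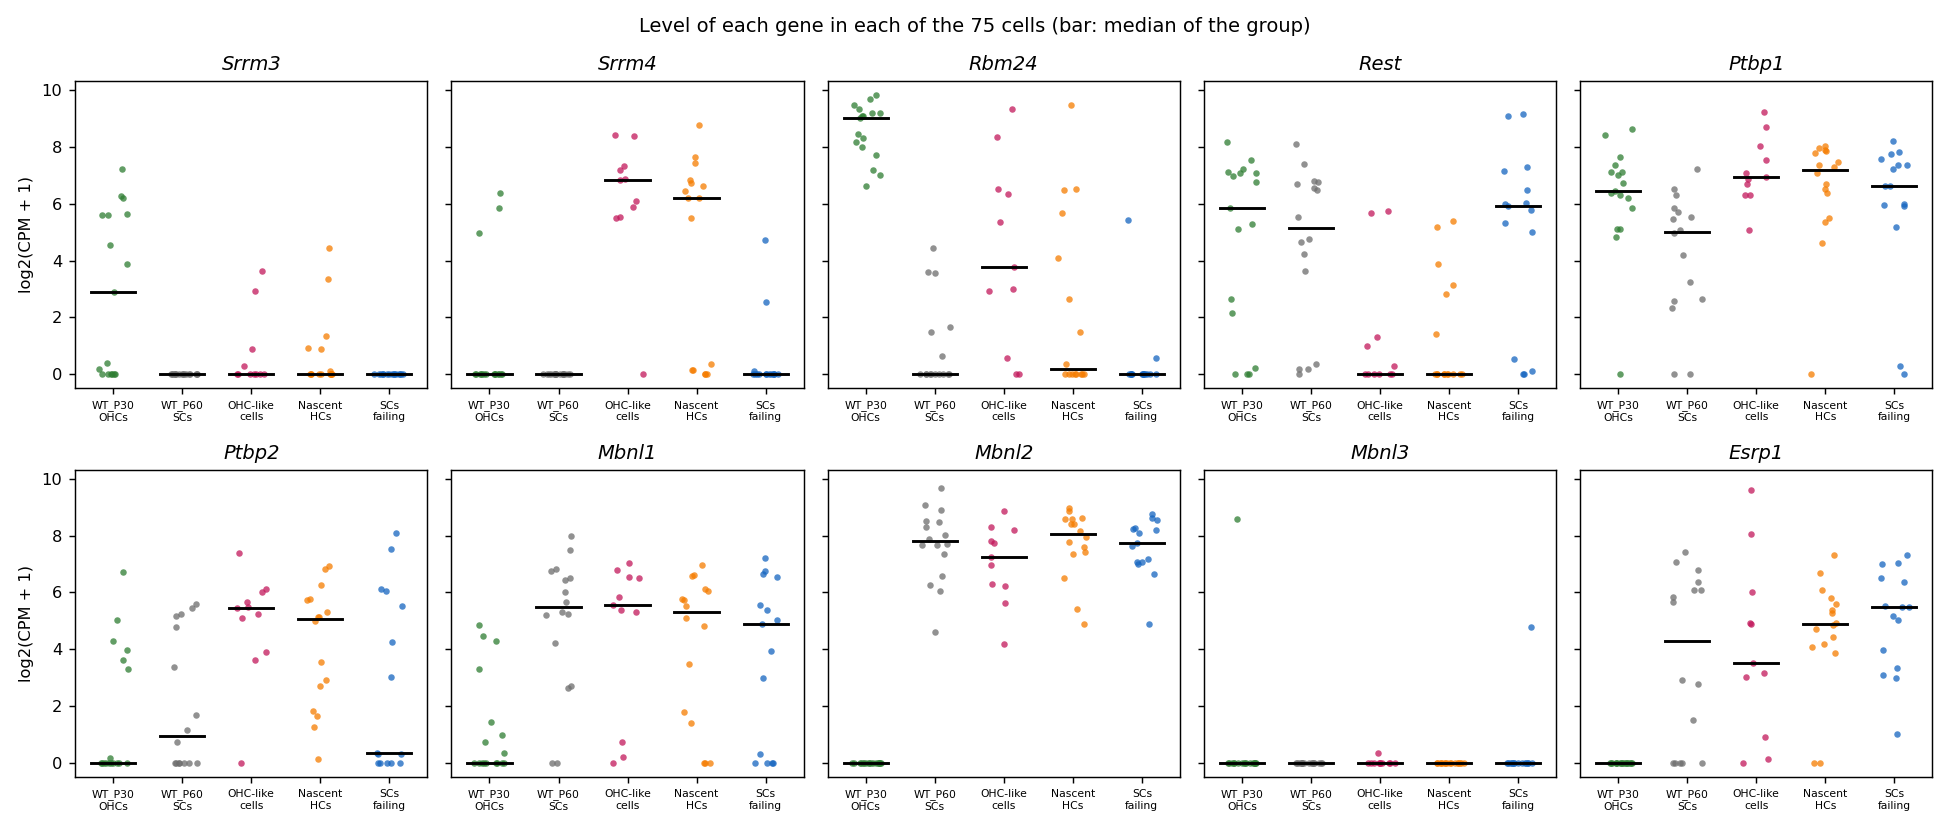
Level of each of the 10 genes in each of the 75 cells, as log2(CPM + 1), by group ("SCs failing" are the SCs failing to become HCs). Each point is a cell and the black bar is the median of its group. Mbnl2 and Esrp1 are at 0 in all 17 WT_P30 OHCs, Srrm4 is detected in 10 of 11 OHC-like cells, and Rest is at a median of 0 in OHC-like cells and nascent HCs only.

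Per length of transcript, which allows levels of the paralogs to be compared (TPM, scaled to a sum of 1000000 in each cell), Srrm3 made up 76.6% of the summed Srrm3 and Srrm4 of WT_P30 OHCs, with a mean of 10.1 TPM against 3.09 TPM for Srrm4. In OHC-like cells Srrm4 made up 97.8% (25.0 against 0.570 TPM) and in nascent HCs 97.2% (23.4 against 0.674 TPM). Srrm3 was the higher of the pair in 9 of the 11 WT_P30 OHCs with a read of either gene, and Srrm4 in all 10 such OHC-like cells and in 12 of 13 such nascent HCs. Neither paralog passed 1 CPM in 7 of 17 WT_P30 OHCs, 1 of 11 OHC-like cells and 5 of 16 nascent HCs. The counts are per gene, and whether counting used the strand of reads is not given in the sources used here. An antisense gene, Srrm4os, shares 68 exon bases with Srrm4 (0.78% of its exon length). It was at 0 in both wild-type groups and in SCs failing to become HCs, and had a mean of 3.89 CPM in OHC-like cells (detected in 3 of 11) and 14.2 CPM in nascent HCs (6 of 16). Its part in the Srrm4 counts was not tested.

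**Figure D2:**
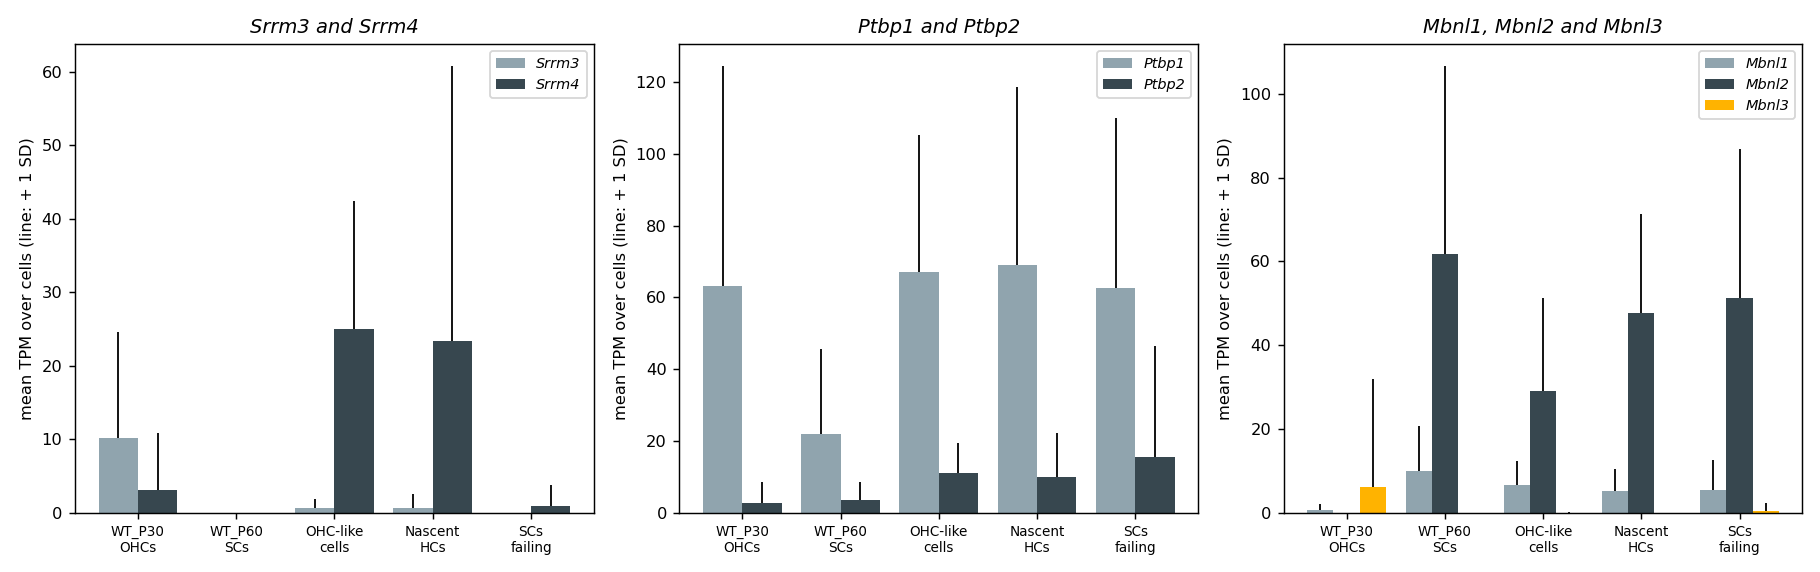
Mean level per length of transcript (TPM) of paralogous genes in each group, with a line for 1 SD over cells above each bar. Srrm4 exceeds Srrm3 in OHC-like cells (25.0 against 0.570 TPM) and is below it in WT_P30 OHCs (3.09 against 10.1 TPM). The Mbnl3 bar of WT_P30 OHCs is 1 cell.

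Rest, the repressor whose transcript SRRM3 and SRRM4 can splice, was low in both induced groups that had Srrm4. Its level was 82.4 ± 83.7 CPM in WT_P30 OHCs (0 to 286, median 57.4), 67.2 ± 76.5 CPM in WT_P60 SCs (0 to 276, median 35.8) and 121 ± 185 CPM in SCs failing to become HCs (0 to 580, median 59.9). In OHC-like cells it was 9.56 ± 20.6 CPM (0 to 52.7) and in nascent HCs 6.60 ± 13.0 CPM (0 to 40.9), with a median of 0 in both. Detection had a like order, with 13 of 17 WT_P30 OHCs, 12 of 16 WT_P60 SCs and 11 of 15 SCs failing to become HCs against 3 of 11 OHC-like cells (27.3%, 6.02 to 61.0%) and 6 of 16 nascent HCs (37.5%, 15.2 to 64.6%). The mean of OHC-like cells was 7.03-fold below WT_P60 SCs (log2 -2.81), 8.62-fold below WT_P30 OHCs (log2 -3.11) and 12.7-fold below SCs failing to become HCs (log2 -3.66). Nascent HCs were 10.2-fold below WT_P60 SCs (log2 -3.35) and 18.4-fold below SCs failing to become HCs (log2 -4.20). WT_P30 OHCs and WT_P60 SCs differed by 1.23-fold, less than the spread between cells of either group. OHC-like cell 11 held 50.2% of the Rest signal of its group, and without it the OHC-like mean was 12.8-fold below WT_P60 SCs, 15.7-fold below WT_P30 OHCs and 23.1-fold below SCs failing to become HCs. Without OHC-like cell 1 these ratios were 12.1, 14.9 and 21.9, and without nascent HC 14 those of nascent HCs were 15.6 and 28.1. Within the library series that held cells of both kinds, OHC-like and failing, the difference was smaller, at log2 -0.58 in series A (1 against 4 cells) and -1.18 in series E (2 against 1). For nascent HCs over SCs failing to become HCs it was -3.63 in series A (1 against 4), -1.94 in series E (4 against 1) and -9.40, as a bound, in series C (1 against 10).

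Cell by cell, few OHC-like cells and nascent HCs had both Srrm4 and Rest, in groups where Rest was detected in only 3 of 11 and 6 of 16 cells. Among OHC-like cells and nascent HCs together, 27 in all, 16 had Srrm4 without Rest, 5 had Rest without Srrm4, 4 had both and 2 neither. Both SCs failing to become HCs with Srrm4 had Rest as well, so that 6 of the 22 Srrm4 cells among the 42 induced cells had it. The 4 with both were OHC-like cells 2 and 11 and nascent HCs 2 and 11, in which Rest was 1.46, 52.7, 13.6 and 35.6 CPM. The only OHC-like cell without Srrm4, cell 1, had 49.7 CPM of Rest, and it was also the only OHC-like cell of library series A. Spearman's rho of Srrm4 with Rest was -0.55 over the 42 induced cells and -0.41 over the 27 OHC-like cells and nascent HCs, among points that share library series and the sort on Myo7a. Rest had a rho of -0.61 with Myo7a over the 42 cells, and Srrm4 one of 0.76, so that both follow the gene by which the groups were made. In WT_P30 OHCs Rest was detected in 13 of 17 cells. The 3 cells with Srrm4 all had it, and so did 6 of the 9 cells with Srrm3, while 7 cells had Rest without Srrm3 and 1 had neither. Gene counts do not resolve the alternative exon of Rest, so which form of the transcript each cell had was not measured.

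**Figure D3:**
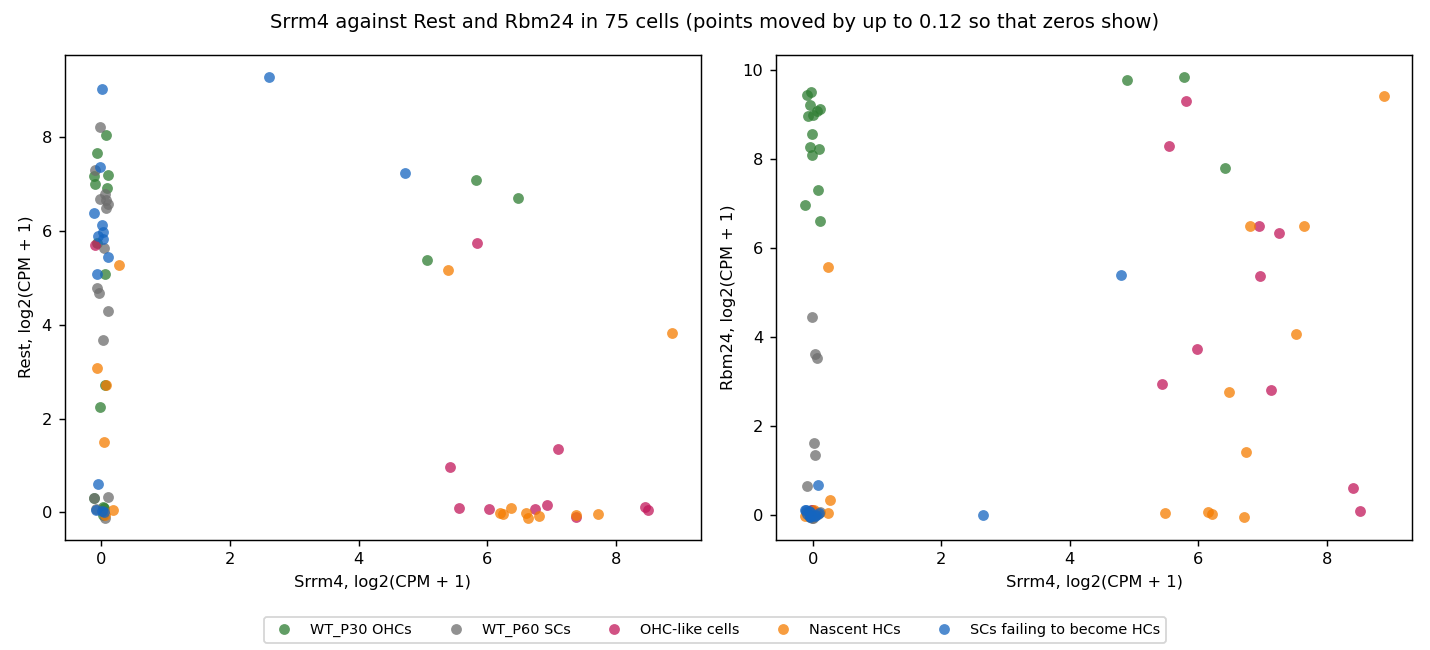
Srrm4 against Rest (left) and against Rbm24 (right), both axes as log2(CPM + 1), 1 point per cell and 1 colour per group, with points moved by up to 0.12 so that zeros show. Most OHC-like cells and nascent HCs lie to the lower right of the left panel, with Srrm4 and without Rest (16 of 27), and WT_P30 OHCs with Srrm4 lie above them.

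Among 21 neuronal genes taken as known REST targets, 11 passed the filter. In WT_P30 OHCs 7 were past the 4-fold limit above WT_P60 SCs and 0 below, with a median log2 ratio of 4.98 over the 11 genes against -0.12 over all genes, of which 13.3% were above and 21.2% below. OHC-like cells had 9 above and 0 below (median 4.4, all genes 0.31, with 18.3% above and 10.5% below), nascent HCs also 9 and 0 (median 4.74, all genes 0.34, with 17.7% above and 8.73% below). SCs failing to become HCs had 6 above and 2 below (median 2.22, all genes 0.23, with 14.9% above and 7.31% below). Genes of this list that pass the filter only through HCs had to differ, and the 4 comparisons share the 16 WT_P60 SCs. Snap25, a SNARE of synaptic vesicle release, was at 214 CPM in WT_P30 OHCs (detected in 16 of 17), 162 CPM in OHC-like cells (9 of 11), 144 CPM in nascent HCs (10 of 16), 67.3 CPM in SCs failing to become HCs (2 of 15) and 0 in WT_P60 SCs. Chgb, a granin of secretory granules, was highest in OHC-like cells with 149 CPM (6 of 11 cells), against 79.9 CPM in nascent HCs and 12.5 CPM in WT_P30 OHCs. Celsr3, an adhesion G protein-coupled receptor, was detected in 10 of 11 OHC-like cells (34.2 CPM) and 4 of 17 WT_P30 OHCs (19.6 CPM). Syp, which encodes the vesicle protein synaptophysin, was at 27.5, 23.6 and 11.2 CPM in WT_P30 OHCs, OHC-like cells and nascent HCs. Scg3, another granin family gene, was at 75.1 CPM in WT_P30 OHCs and at 17.8 and 16.3 CPM in OHC-like cells and nascent HCs, where 2 of 11 and 3 of 16 cells had it. The list shares Tubb3 with the neuron markers examined. Of these 6 markers, 4 were detected in some OHC-like cell, with a sum between 0 and 430 CPM (median 0.198), and 4 in some nascent HC, with a sum between 0 and 861 CPM (median 43.6). The sum reached 207 CPM in WT_P30 OHCs, 31.7 CPM in WT_P60 SCs and 70.7 CPM in SCs failing to become HCs. Prph was detected in no cell of the 5 groups, and the part of the other markers in the result was not tested. Of 3 Schwann cell markers, 2 were detected in some OHC-like cell, with a summed median of 80.8 CPM (0 to 171), and 3 in some nascent HC, with a summed median of 32.0 CPM (0 to 145). Their sum was at most 71.5 CPM in WT_P30 OHCs, 44.2 CPM in WT_P60 SCs and 65.5 CPM in SCs failing to become HCs. Its part in the levels of induced cells was not tested either.

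Of 16 genes of REST corepressors, all of which passed the filter, 3 were past the limit below WT_P60 SCs in WT_P30 OHCs, a share near the 21.2% of all genes, and 0 above: Sin3b (3.97 against 63.2 CPM), the phosphatase Ctdsp1 (6.61 against 49.4 CPM) and the histone deacetylase Hdac1 (41.6 against 176 CPM). In OHC-like cells 3 of 16 were above, also near the share of all genes (18.3%), namely Rcor2, a CoREST family member (15.7 against 0.155 CPM), Phf21a (40.2 against 5.28 CPM) and the demethylase Kdm1a (105 against 25.5 CPM), and Ctdsp1 was below at 1.58 CPM. Hdac1 and Sin3b in OHC-like cells, at 184 and 113 CPM, were within the 4-fold limit of WT_P60 SCs. Nascent HCs had 2 of the 16 genes above and 1 below WT_P60 SCs (17.7 and 8.73% of all genes). SCs failing to become HCs also had 2 above and 1 below (14.9 and 7.31%).

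Rbm24 was present in every WT_P30 OHC and nearly absent from WT_P60 SCs. Its level in the OHCs was 452 ± 250 CPM, from 96.7 through a median of 522 to 914, and it was detected in all 17 cells. WT_P60 SCs had 2.93 ± 5.98 CPM, with a median of 0 and a highest cell of 20.7, so that the groups did not overlap and the ratio was 154 (log2 7.27). In 1.08% of all genes every WT_P30 OHC was above every WT_P60 SC. OHC-like cells had 110 ± 201 CPM and were heterogeneous: 2 cells, 11 and 5, had 645 and 325 CPM and lay within the range of WT_P30 OHCs, the median was 12.7, and 3 of 11 cells were below 1 CPM. In nascent HCs the level was 60.8 ± 179 CPM with a median of 0.131, detected in 7 of 16 cells (43.8%, 19.8 to 70.1%), and cell 2 alone, at 722 CPM, held 74.2% of it. SCs failing to become HCs had Rbm24 in 1 of 15 cells, cell 7, at 42.1 CPM. OHC-like cells were thus 37.4-fold above WT_P60 SCs (log2 5.22) and 4.12-fold below WT_P30 OHCs (log2 -2.04), and 89.3% of cell pairs had more Rbm24 in the WT_P30 OHC.

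Single cells moved these ratios. Without OHC-like cell 11, OHC-like cells were 19.1-fold above WT_P60 SCs, 8.04-fold below WT_P30 OHCs and 19.8-fold, in place of 38.7-fold, above SCs failing to become HCs. The ratio to WT_P30 OHCs was near the 4-fold limit, and leaving out any of 10 single cells, 3 WT_P30 OHCs (4, 5 and 13) and 7 OHC-like cells (1, 2, 4, 6, 7, 8 and 10), gave ratios between 3.74 and 3.97. Without WT_P60 SC 15, the highest of its group, the ratios over WT_P60 SCs were 259 for WT_P30 OHCs and 62.8 and 34.8 for OHC-like cells and nascent HCs. Nascent HCs were 20.7-fold above WT_P60 SCs and 21.5-fold above SCs failing to become HCs, and without nascent HC 2 these ratios were 5.71 and 5.92. Without cell 7 of SCs failing to become HCs, their mean was below the level of 3 reads, to which the ratios of OHC-like cells and nascent HCs were 256 and 142, and WT_P60 SCs were 6.85-fold above it in place of 1.04-fold. In the same 27 cells, 14 had both Rbm24 and Srrm4, 6 had Srrm4 alone and 1 had Rbm24 alone. Over the 42 induced cells the rho of Rbm24 was 0.66 with Srrm4, 0.59 with Prestin (Slc26a5), by which OHC-like cells were sorted, and 0.56 with the number of genes detected. Over the 27 OHC-like cells and nascent HCs, its rho with Ikzf2, counted as transgene and endogenous gene together, was -0.46.

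Ptbp1, the general exon repressor, and Ptbp2, its paralog of neurons, were found in every group. Ptbp1 was at 122 ± 107 CPM in WT_P30 OHCs (median 87.0), 38.5 ± 40.6 in WT_P60 SCs (median 31.5), 195 ± 174 in OHC-like cells (median 122) and 139 ± 86.7 in nascent HCs (median 147). The failing SCs had 121 ± 87.1 CPM with a median of 98.5. WT_P60 SCs were the lowest group, and the mean of each other group was between 3.13 and 5.05 times theirs, with overlapping cells. Only the ratio of OHC-like cells (5.05, log2 2.34) was past the 4-fold limit, and not without OHC-like cell 4, which had 607 CPM. The 4 higher groups differed from each other by less than the spread between cells. Ptbp2 was detected in 10 of 11 OHC-like cells (48.2 ± 44.4 CPM, median 42.4) and 15 of 16 nascent HCs (36.4 ± 38.7 CPM, median 32.3). In WT_P30 OHCs it was found in 6 of 17 cells (11.2 ± 25.9 CPM, median 0), in WT_P60 SCs in 8 of 16 (12.6 ± 18.0 CPM, median 0.944), and 7 of 15 SCs failing to become HCs had it (44.2 ± 80.8 CPM, median 0.279). The log2 ratio of OHC-like cells was 2.1 over WT_P30 OHCs, near the limit and under it with other scalings (1.91 with total counts only, 1.93 with TMMwsp), and 1.93 over WT_P60 SCs. Without WT_P30 OHC 8, which held 55.3% of the signal of its group, the ratio over WT_P30 OHCs was 9.05, and without OHC-like cell 7 it was 3.25. The mean of SCs failing to become HCs was near that of OHC-like cells while their median was near 0. Per length, Ptbp1 made up between 80.1% (SCs failing to become HCs) and 96.0% (WT_P30 OHCs) of the pair. Exons of Ptbp1 overlap those of the opposite-strand genes E130317F20Rik, Plppr3 and Gm17134 over 6.22, 5.30 and 9.22% of its exon length. Their group means were at most 16.7, 16.0 and 0 CPM. How reads in the shared exons were counted is not given here, and their effect on the Ptbp1 counts was not tested.

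Mbnl2 divided adult OHCs from every other cell. Not a single read was counted in any of the 17 WT_P30 OHCs, which bounds its pooled level there at 0.0349 CPM (upper limit of an exact 95% Poisson interval, counting error only). The level was 276 ± 207 CPM in WT_P60 SCs (23.3 to 822, median 223), 184 ± 138 CPM in OHC-like cells (17.3 to 472, median 152), 267 ± 147 CPM in nascent HCs (28.9 to 506, median 266) and 231 ± 120 CPM in SCs failing to become HCs (28.7 to 431, median 216). All 58 cells outside the WT_P30 OHCs had it. Among the 11443 genes, Mbnl2 was the only gene without a read in WT_P30 OHCs and detected in every one of the 58 other cells. Absence of reads from WT_P30 OHCs as such was not rare, at 9.30% of the genes. The mean of WT_P30 OHCs was at least 623-fold below WT_P60 SCs (log2 -9.28), a comparison in which 1.96% of genes were lower without overlap, and that of OHC-like cells at least 414-fold above WT_P30 OHCs (log2 8.69), a comparison in which 0.717% of genes were higher without overlap. Among the 4 groups that had Mbnl2, OHC-like cells had the lowest mean (log2 -0.59 relative to WT_P60 SCs), and the groups differed by less than the spread between cells. OHC-like cells 10 and 11, the pair from series E, were the lowest of their group at 48.9 and 17.3 CPM, and cell 11 was the one highest in Rbm24.

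Mbnl1 followed the same division less sharply. It was at 4.72 ± 8.95 CPM in WT_P30 OHCs (median 0, highest 27.9, detected in 5 of 17) and at 67.6 ± 70.5 CPM in WT_P60 SCs (median 43.9, 14 of 16), a 14.3-fold lower mean (log2 -3.84). OHC-like cells had 55.1 ± 46.0 CPM (8 of 11), 11.7-fold above WT_P30 OHCs (log2 3.54). Nascent HCs had 42.3 ± 39.9 CPM (13 of 16) and SCs failing to become HCs 41.1 ± 48.0 CPM (10 of 15), and the 4 groups with the higher levels differed by less than their spread. Mbnl3 was found past 1 CPM in 2 of the 75 cells only, 384 CPM (2669 reads) in WT_P30 OHC 7 and 26.3 CPM (171 reads) in a SC failing to become a HC, so its group means describe single cells. Per length, Mbnl2 was the main gene of the family outside the OHCs, from 81.6% of the family's TPM in OHC-like cells to 90.2% in nascent HCs. In WT_P30 OHCs 9 of 17 cells had no read of any of the 3 genes.

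Esrp1, like Mbnl2, was missing from the reads of adult OHCs. It had no read in any WT_P30 OHC and 47.2 ± 55.3 CPM in WT_P60 SCs (0 to 173, median 28.4, detected in 11 of 16), a mean at least 106-fold lower in the OHCs (log2 -6.73). Nascent HCs had 41.2 ± 40.9 CPM (median 28.4, 14 of 16) and SCs failing to become HCs 55.3 ± 50.9 CPM (median 43.7, 14 of 15). OHC-like cells had 108 ± 236 CPM with a median of 10.5, detected in 8 of 11, and cell 4 alone, at 781 CPM, held 65.5%. Their mean was at least 244-fold above WT_P30 OHCs (log2 7.93) and at least 92.7-fold without cell 4. The 3 OHC-like cells below 1 CPM were cells 3, 10 and 11. Between the induced groups and WT_P60 SCs no ratio passed the 4-fold limit. The paralog Esrp2, in contrast, had no read in either wild-type group and a mean of 35.0 CPM in OHC-like cells (8 of 11), 55.6 CPM in nascent HCs (11 of 16) and 47.8 CPM in SCs failing to become HCs (8 of 15).

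**Figure D4:**
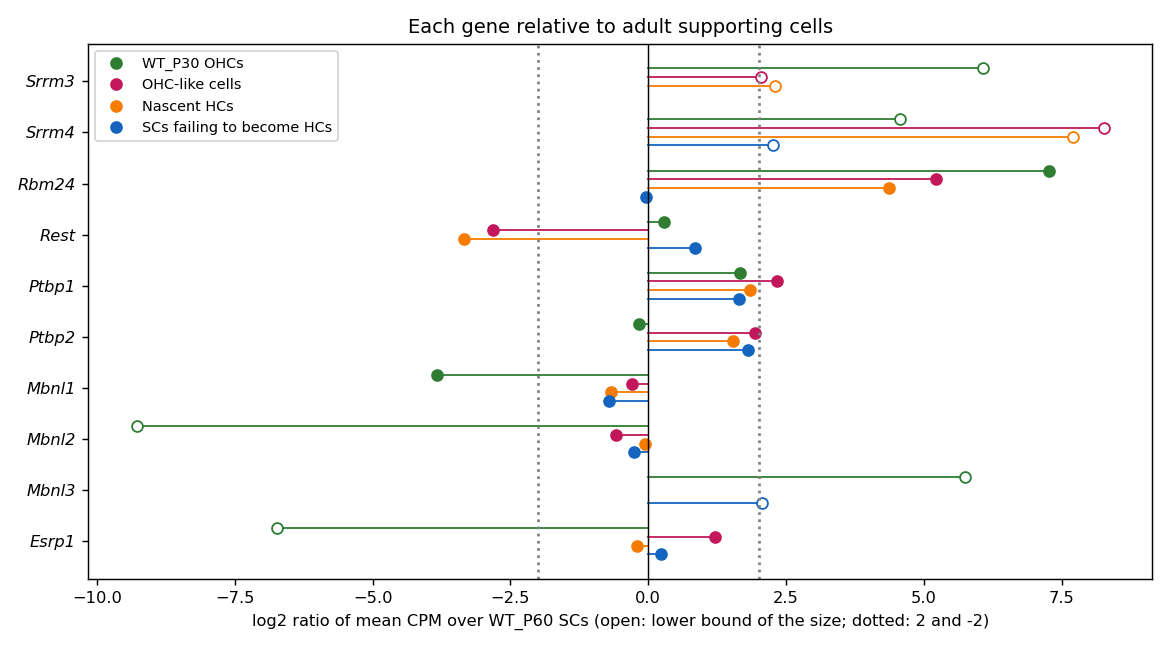
Log2 ratio of the mean CPM of each group over WT_P60 SCs for the 10 genes. Open points are lower bounds of the size of the ratio, dotted lines mark 2 and -2, and a gene without reads above 3 in either group has no point. WT_P30 OHCs reach 7.27 for Rbm24 and -9.28 for Mbnl2, while the induced groups lie between -0.59 and -0.05 for Mbnl2 and OHC-like cells and nascent HCs at -2.81 and -3.35 for Rest.

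Counted over the 9 genes that passed the filter, WT_P30 OHCs over WT_P60 SCs had 3 past the limit above (Srrm3, Srrm4, Rbm24; 13.3% of all genes) and 3 below (Mbnl1, Mbnl2, Esrp1; 21.2%). OHC-like cells over WT_P60 SCs had 4 above (Srrm3, Srrm4, Rbm24, Ptbp1, against 18.3% of all genes) and 1 below (Rest, against 10.5%). Nascent HCs over WT_P60 SCs had 3 above (Srrm3, Srrm4, Rbm24, against 17.7%) and 1 below (Rest, against 8.73%). SCs failing to become HCs had 1 above, Srrm4 (against 14.9%), and 0 below (against 7.31%). These 4 comparisons share their controls. Srrm3 and Srrm4 had no read in WT_P60 SCs, and Mbnl2 and Esrp1 none in WT_P30 OHCs. They passed the filter only through other groups, so the groups where they are high had to differ from those without reads. The counts that hold these genes were thus partly fixed by the filter. OHC-like cells over WT_P30 OHCs had 5 above (Srrm4, Ptbp2, Mbnl1, Mbnl2, Esrp1, against 24.1%) and 3 below (Srrm3, Rbm24, Rest, against 7.77%), thus 8 of 9 in either direction. Over SCs failing to become HCs, OHC-like cells had 3 above (Srrm3, Srrm4, Rbm24, against 11.2%) and 1 below (Rest, against 9.83%), and nascent HCs the same 3 above (against 9.6%) and Rest below (against 7.4%). OHC-like cells and nascent HCs had 0 of 9 genes past the limit between them, with 3.35% of all genes above and 5.03% below. Srrm4, Rbm24, Rest and Ptbp1 were 1.48-, 1.80-, 1.45- and 1.40-fold higher in OHC-like cells, less than the spread between cells in each case. Without nascent HC 2 the Rbm24 ratio between these groups passed the limit (6.54), and without OHC-like cell 11 the log2 ratios of Rbm24 and Rest turned to -0.11 and -0.33.

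**Figure D5:**
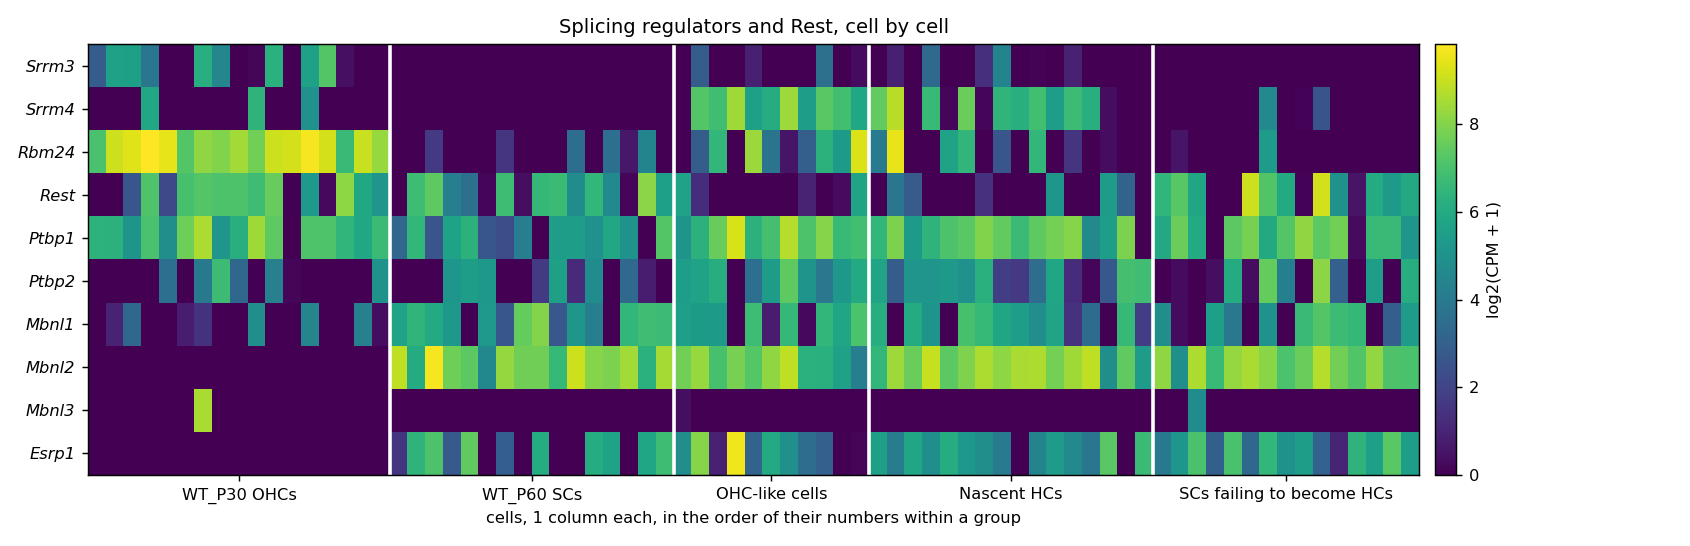
Level of the 10 genes (rows) in the 75 cells (columns, grouped), as colour on the scale log2(CPM + 1). The Mbnl2 and Esrp1 rows are empty in the 17 WT_P30 OHCs and mostly filled in the induced cells (Mbnl2 detected in all 42, Esrp1 in 36). The Rbm24 row is filled in all WT_P30 OHCs and patchy in OHC-like cells. In the Rest row 3 of 11 OHC-like cells and 6 of 16 nascent HCs are at detected levels.

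Within library series, the comparison among induced cells rested on few cells. Series B held 5 OHC-like cells and 6 nascent HCs, in which Rest was at most 1.46 and 1.65 CPM and Srrm4 had medians of 113 and 91.7 CPM. In series D, 3 OHC-like cells and 4 nascent HCs had Srrm4 between 44.1 and 335 CPM, and Rest was at 35.6 CPM in 1 of the 7 cells and below 1 CPM in the others. Series C held 10 SCs failing to become HCs with Rest at a median of 51.1 CPM (7 of 10 cells) and 1 nascent HC without Rest and with 72.8 CPM of Srrm4. This nascent HC had no Rbm24, and the mean of the 10 other cells was 4.21 CPM, so that the direction of the Rbm24 difference was opposite within this series. In series A, the only OHC-like cell and the only nascent HC had no read of Srrm4 or Rbm24, and neither gene passed 1 CPM in the 4 SCs failing to become HCs beside them. In series E, Srrm4 was detected in both OHC-like cells, in 1 of 4 nascent HCs and not in the SC failing to become a HC. Mbnl2 was detected in every induced cell of every series.

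The other splicing genes are given for scale. None of 14 filtered genes of SR proteins, which activate exons, passed the 4-fold limit in any of the 8 comparisons. Of 24 genes of hnRNPs, which mostly repress exons, 2 were past it above in WT_P30 OHCs over WT_P60 SCs, Pcbp3 (25.3 against 0 CPM) and Hnrnpul2 (59.6 against 14.0 CPM), and Pcbp3 alone in OHC-like cells (62.6 CPM) over WT_P60 SCs, fewer than the 13.3 and 18.3% of all genes. Of 32 filtered core spliceosome genes, 3 were past it below in WT_P30 OHCs, Snrpa (17.6 against 112 CPM), Prpf19 (27.1 against 138 CPM) and Snrpd3 (57.9 against 236 CPM), a share below the 21.2% of all genes, and none in OHC-like cells, nascent HCs or SCs failing to become HCs over WT_P60 SCs. Of 33 further regulators restricted to some cell types, 18 passed the filter. In WT_P30 OHCs 4 of them were above (13.3% of all genes were), led by Rbfox2 (48.7 against 1.55 CPM), Raver2, a partner of PTB proteins (68.8 against 2.87 CPM), and Khdrbs3 (34.0 against 1.63 CPM). Below, as 21.2% of all genes, were 2, Rbm47 (3.61 against 40.1 CPM) and Qk, the quaking gene (29.3 against 139 CPM). In OHC-like cells 6 were above and 0 below WT_P60 SCs, against 18.3 and 10.5% of all genes, led by Esrp2, by Rbfox3 (23.6 against 0.136 CPM, detected in 3 of 11 cells) and by Nova1 (22.2 against 0 CPM, 4 of 11 cells). Rbfox3, also a neuron marker, was at 57.8 CPM in nascent HCs (6 of 16 cells). The median log2 ratio of the 18 genes was 0.05 in WT_P30 OHCs (all genes -0.12) and 1.26 in OHC-like cells (all genes 0.31). It was 0.76 in nascent HCs (all genes 0.34) and 1.13 in SCs failing to become HCs (all genes 0.23). Nascent HCs had 5 above and 0 below WT_P60 SCs (17.7 and 8.73% of all genes). SCs failing to become HCs had 4 above and 0 below (14.9 and 7.31%), so the rise was not particular to OHC-like cells.

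The genes most like 4 of the regulators in pattern were ranked by Spearman's rho of CPM over the 75 cells, a description over cells that share groups, library series and many zeros. For Srrm4 they included Cxcl14 (rho 0.88), Begain (0.83), Mafa (0.83) and Epha5 (0.83). Cxcl14, a chemokine, was at 255 CPM in OHC-like cells and 143 CPM in nascent HCs against 0 in WT_P30 OHCs. For Rbm24 they were Gm6558 (0.83), Strip2 (0.81), the HC transcription factor gene Gfi1 (0.81), Lbh (0.81) and Fam217b (0.80). Strip2 was at 1236 CPM in WT_P30 OHCs and 52.4 CPM in OHC-like cells. For Mbnl2 they were Maea (0.69), Tollip (0.68), Mafg (0.66), Nudt3 (0.65) and Gm17709 (0.62). Esrp1 had Ptma (0.60), Epb41l4b (0.58), the epithelial surface gene Cd24a (0.58), Elf1 (0.57) and Zfp36 (0.57). Cd24a was at 37.2 CPM in WT_P30 OHCs, 745 CPM in WT_P60 SCs and 1353 CPM in OHC-like cells.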

How the data were processed

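Libraries of 75 hand-picked cells, 1 per cell, were measured. Per the labels, the authors used FastQC 0.11.9, Trimmomatic 0.39, HISAT2 2.1.0, StringTie 1.3.5 and HTSeq 0.10.0 with the mouse build GRCm38 (mm10), and they deposited raw read counts per gene, not normalized, without molecular identifiers. Strand use in counting is not given in the sources used here. All 75 columns were matched to samples by name. Library series group the cells along the sequencing library codes in the sample descriptions. Series A to D of the induced cells follow each other in number, so their divisions are not given by breaks in the codes and are not known batches. The WPRE row (0.0254% of counts), no mouse gene, was left out.

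From the counts, TMM factors and the filter (filterByExpr, minimum count 10, by group) came from edgeR 4.0.16 (R 4.3.3), and DESeq2 1.42.0 gave size factors for an alternative. TPM used exon lengths of GENCODE M21 for 53292 genes, and promoter windows came from RefSeq. Other steps used python 3.11.15, pandas 2.3.3, scipy 1.17.1 and matplotlib 3.10.9. The calculation of the ratio was checked on simulated counts of known ratio, drawn around a pooled mean of each gene and without TMM scaling. This check does not cover genes whose signal lies in a few cells. Alternatives were other scalings, no filter, other summaries over cells, thinned counts, other detection limits, single library series and omitted cells. No test was made between groups, since cells are not replicates of a condition and no animals are named. Intervals cover counting error only. Beside the 10 genes, the text names the up to 3 genes per list and direction with the largest ratios past the limit in WT_P30 OHCs or OHC-like cells over WT_P60 SCs, and the 5 genes most like Srrm4, Rbm24, Mbnl2 and Esrp1. One gene that this rule names is not reported here. Srrm4os, Esrp2 as paralog, the other overlapping genes, the genes correlated with (Myo7a, Slc26a5, Ikzf2) and single cells were named with values known. The members, lists and alternatives were chosen with earlier results of these data known.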

Additional observations from a re-analysis of the deposited data

How the results depend on the processing

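Of 91 recomputed counts of genes past the 4-fold limit, 80 stayed within 1.5 times the reported count, which does not mean that the same genes passed. For nascent HCs over WT_P60 SCs (4), medians and the mean of log2(CPM + 1) also gave 4 but shared 2, with Ptbp1 and Ptbp2 in place of Rbm24 and Srrm3. Without cell 7 of SCs failing to become HCs, the 1 gene of that group over WT_P60 SCs was Rbm24 in place of Srrm4. The count of SCs failing to become HCs over WT_P60 SCs (1, Srrm4) was 2 with DESeq2 size factors, 2 without the filter, 2 without cells 2 and 4 of that group, 3 at a log2 ratio over 1, and 0 with medians over cells, with the mean of log2(CPM + 1) and with cells thinned to the smallest total. That of nascent HCs over SCs failing to become HCs (4) was 2 with the mean of log2(CPM + 1), and that of OHC-like cells over nascent HCs (0) was 1 with medians, 1 at a log2 ratio over 1 and 1 without nascent HC 2. The cause was not tested. With each cell of the compared groups left out in turn, the counts were 1 to 2 and 0 to 1 for SCs failing to become HCs over WT_P60 SCs and for OHC-like cells over nascent HCs, and 6 to 8 (reported 8) for OHC-like cells over WT_P30 OHCs. Within library series C (1 nascent HC) the log2 ratio of Rbm24 over SCs failing to become HCs was -4.28. Srrm3 in OHC-like cells over WT_P60 SCs was under the limit with total counts only (log2 1.92), DESeq2 size factors (1.82), TMMwsp (1.89) and thinned cells (1.42), Ptbp2 in OHC-like cells over WT_P30 OHCs with total counts only (1.91), TMMwsp (1.93) and summed counts (1.79), and Rbm24 in nascent HCs over WT_P60 SCs with the mean of log2(CPM + 1) (1.34) and with medians, which are below the level of 3 reads in both groups. No change of scaling turned the direction of a ratio past the limit, while it moved the median of all genes by up to 0.25 in size (OHC-like cells over WT_P30 OHCs, shift of -0.25 with total counts only). The settings that leave out each cell in turn, nascent HC 2, OHC-like cell 11, cell 7 of SCs failing to become HCs or WT_P30 OHC 7 were chosen after seeing the data. No paired analysis was possible because the cell numbers only name cells and no test was made. Counts without molecular identifiers limit the precision of all shares.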
